A study of Rattus norvegicus with 16 samples.

Results

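The genes of glycolysis, glycogen, the pyruvate dehydrogenase complex and the tricarboxylic acid (TCA) cycle were followed in the left ventricle of rats of a hypertensive and a normotensive strain, after diesel exhaust (DE) or clean air. The 46 members were listed by name, from glucose uptake to the last step of the cycle, and all their probe sets were taken by gene symbol from the platform annotation. Of the 46, 42 had a tested probe set of their own, with 56 probe sets in all out of 12783 probe sets on 10411 genes. The glycolytic enzyme Gapdh was found on control probe sets, Pkm on a probe set assigned to several genes, and Dlat and Fh were not analysed here.

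Left ventricle RNA of 4 SH-DE, 4 SH-air, 4 WKY-DE and 4 WKY-air rats was hybridized to 16 arrays, described as biological replicates. All rats were male and 12–14 weeks of age. The spontaneously hypertensive (SH) rat develops high blood pressure, while Wistar Kyoto (WKY) rats, its comparison strain, stay normotensive. DE groups breathed air with 2.0 mg/m3 of particles and air groups clean air, whole body, on 5 days/week for 4 weeks, for 6 hr/day by the sample labels, a daily duration that the study's methods give differently. The 4 groups thus differ in the whole background of the strain as well as in exposure. Signals are linear MAS5 intensities, and log2 differences were computed after adding an offset of 16.1, which understates the changes of dim probe sets. The comparisons share arrays: each group enters 2 of the 4 pairwise ones and the interaction.

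Glycolysis splits glucose to pyruvate in the cytosol, glycogen stores glucose for short-term demand, and pyruvate dehydrogenase turns pyruvate into acetyl-CoA for the TCA cycle in the mitochondria. The adult heart takes most of its energy from fatty acids and keeps glucose as a flexible fuel. The 2 fuels compete at pyruvate dehydrogenase, which kinases (Pdk) switch off and phosphatases (Pdp) switch on. Hypertrophied and fetal hearts are known for a larger reliance on glucose.

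Some facts of the arrays touch every result below. The atrial light chain Myl7 was at 94.2 to 7876 in SH-DE, 33.4 to 154 in SH-air, 404 to 9630 in WKY-DE and 4415 to 25946 in WKY-air. The summed signal of 8 atrial markers was 24185 to 46688 in SH-DE, 25681 to 38158 in SH-air, 24027 to 56751 in WKY-DE and 51425 to 124682 in WKY-air. Of these 8, 7 were called lower in SH-air and 1 was called lower in WKY-DE, each against WKY-air. Of 10 fibroblast markers 7 were called lower in SH-air and 1 in WKY-DE, again against WKY-air. Against the same group, 2 of 5 adipocyte markers were called lower in SH-air and 1 of 7 skeletal muscle markers in WKY-DE. Of 9 ventricular markers 1 was called lower in SH-air and 1 was called lower in WKY-DE, each against WKY-air. Myl2 was at 27749 to 60897 over the 16 arrays. Myh7, the slow ventricular myosin, was at 11590 to 25554 in SH-DE, 18587 to 20833 in SH-air, 27305 to 32486 in WKY-DE and 35097 to 39324 in WKY-air. The dim Irx4, a ventricular transcription factor, was at 19.4 to 68.4 in SH-DE, 17.3 to 44.8 in SH-air, 6.80 to 15.7 in WKY-DE and 39.9 to 90.9 in WKY-air. The median signal was 209 to 216 in WKY-DE, against 173 to 197 on the other arrays. The part of the fibroblast, ventricular, adipocyte and skeletal muscle markers in the results was not tested. The atrial signal entered some fits as a covariate, and some alternative fits scaled the arrays to the same median. In bulk tissue, fewer cells of a type and less RNA per cell cannot be told apart, and p-values rest on 4 arrays a group.

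Eno1 had the largest strain difference of the 56 member probe sets, in air and under DE. It encodes alpha-enolase, which makes phosphoenolpyruvate late in glycolysis and is the ubiquitous enolase, the fetal form in heart. Eno3 encodes the muscle form and Eno2 the neuronal form. The windows of 250 bases before the annotated starts of these 3 genes are shown because Eno1 was called between the strains and Eno2 and Eno3 were not. They are from RefSeq on GRCr8, the Brown Norway reference, so they are of neither strain studied. Capitals mark the GC box (GGGCGG), the CCAAT box (CCAAT) and the core of the hypoxia response element (ACGTG), each searched on both strands. The first Eno1 window is at chr5:166002617-166002866 and the second at chr5:166003111-166003360, both on the plus strand. Eno2 is at chr4:159267221-159267470 on the minus strand and Eno3 at chr10:55868936-55869185 on the plus strand.
Eno1, first start: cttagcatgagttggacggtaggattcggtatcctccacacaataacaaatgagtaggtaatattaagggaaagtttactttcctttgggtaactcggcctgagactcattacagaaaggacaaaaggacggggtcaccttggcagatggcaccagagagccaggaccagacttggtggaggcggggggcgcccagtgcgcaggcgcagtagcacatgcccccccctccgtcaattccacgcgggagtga
Eno1, second start: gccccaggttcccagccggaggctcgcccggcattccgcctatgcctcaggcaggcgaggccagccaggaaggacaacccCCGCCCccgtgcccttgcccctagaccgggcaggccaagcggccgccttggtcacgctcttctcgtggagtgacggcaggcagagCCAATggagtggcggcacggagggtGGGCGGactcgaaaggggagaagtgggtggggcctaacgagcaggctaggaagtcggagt
Eno2: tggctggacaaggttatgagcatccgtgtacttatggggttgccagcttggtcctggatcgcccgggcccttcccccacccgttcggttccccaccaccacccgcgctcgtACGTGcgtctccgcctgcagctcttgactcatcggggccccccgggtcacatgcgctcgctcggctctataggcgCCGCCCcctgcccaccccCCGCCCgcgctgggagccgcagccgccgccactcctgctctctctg
Eno3: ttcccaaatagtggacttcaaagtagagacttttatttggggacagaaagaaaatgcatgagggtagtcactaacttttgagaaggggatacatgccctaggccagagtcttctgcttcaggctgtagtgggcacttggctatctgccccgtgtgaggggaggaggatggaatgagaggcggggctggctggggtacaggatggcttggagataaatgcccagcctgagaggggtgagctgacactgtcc
The second Eno1 window held 2 GC boxes and 1 CCAAT box, and the first held none of the 3 motifs. The Eno2 window had 2 GC boxes and 1 hypoxia core, while that of Eno3 had none of them. A GC box was in 55.8% of 43 member windows, on 39 genes, and in 30.5% of all 33469 windows of this length. The CCAAT box was in 46.5% of member windows and 34.0% of all, and the hypoxia core in 34.9% of member windows and 16.6% of all. The core of the estrogen-related receptor element (AAGGTCA) was in 2.33% of member windows and 3.99% of all. A match is a description of letters and not a bound site.

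Calls required both an unadjusted limma p under 0.01 and a Benjamini-Hochberg adjusted one under 0.05. In air, 3.14% of the 12783 probe sets were called between SH-air and WKY-air. Of the 56 member probe sets 2 (3.57%) were called, those of Eno1 and Pdhx, both higher in SH-air. Under DE, 0.704% of all probe sets and 1 of 56 member probe sets (1.79%), again Eno1, were called between SH-DE and WKY-DE. In WKY rats 1.87% of all probe sets were called for DE, and 2 of 56 (3.57%), Pdhx higher and Pgm1 lower in WKY-DE. In SH rats 0.0% of all probe sets were called for DE, and 0 of 56 members. The strain by exposure interaction was called for 0.00782% of all probe sets and for 0 of 56. These member shares rest on 1 or 2 probe sets. With the atrial covariate, described below, 0 members were called between the strains in air and 1, Eno1, under DE. For DE in WKY rats 0 members were called with it. Myl7 did not overlap between SH-air (33.4 to 154) and WKY-air (4415 to 25946). In air this fit therefore cannot tell atrial signal and strain apart.

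At an unadjusted p under 0.05, 7 of 56 member probe sets (12.5%) differed between SH-air and WKY-air, beside 17.8% of all probe sets. Between SH-DE and WKY-DE it was 6 of 56 (10.7%), beside 13.3%. For DE in WKY rats it was 12 of 56 (21.4%), beside 20.4%, and for the interaction 3 of 56 (5.36%), beside 12.5%. For DE in SH rats it was 9 of 56 (16.1%), on 7 genes, beside 6.23%, with none of these called after adjustment. The median standard error of a member's log2 difference was 0.14, and 0.19 for the interaction. In the strain comparison in air 53 of 56 member probe sets lay within 0.5 of no difference, and in SH rats 55 of 56 did so for DE.

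**Figure D1:**
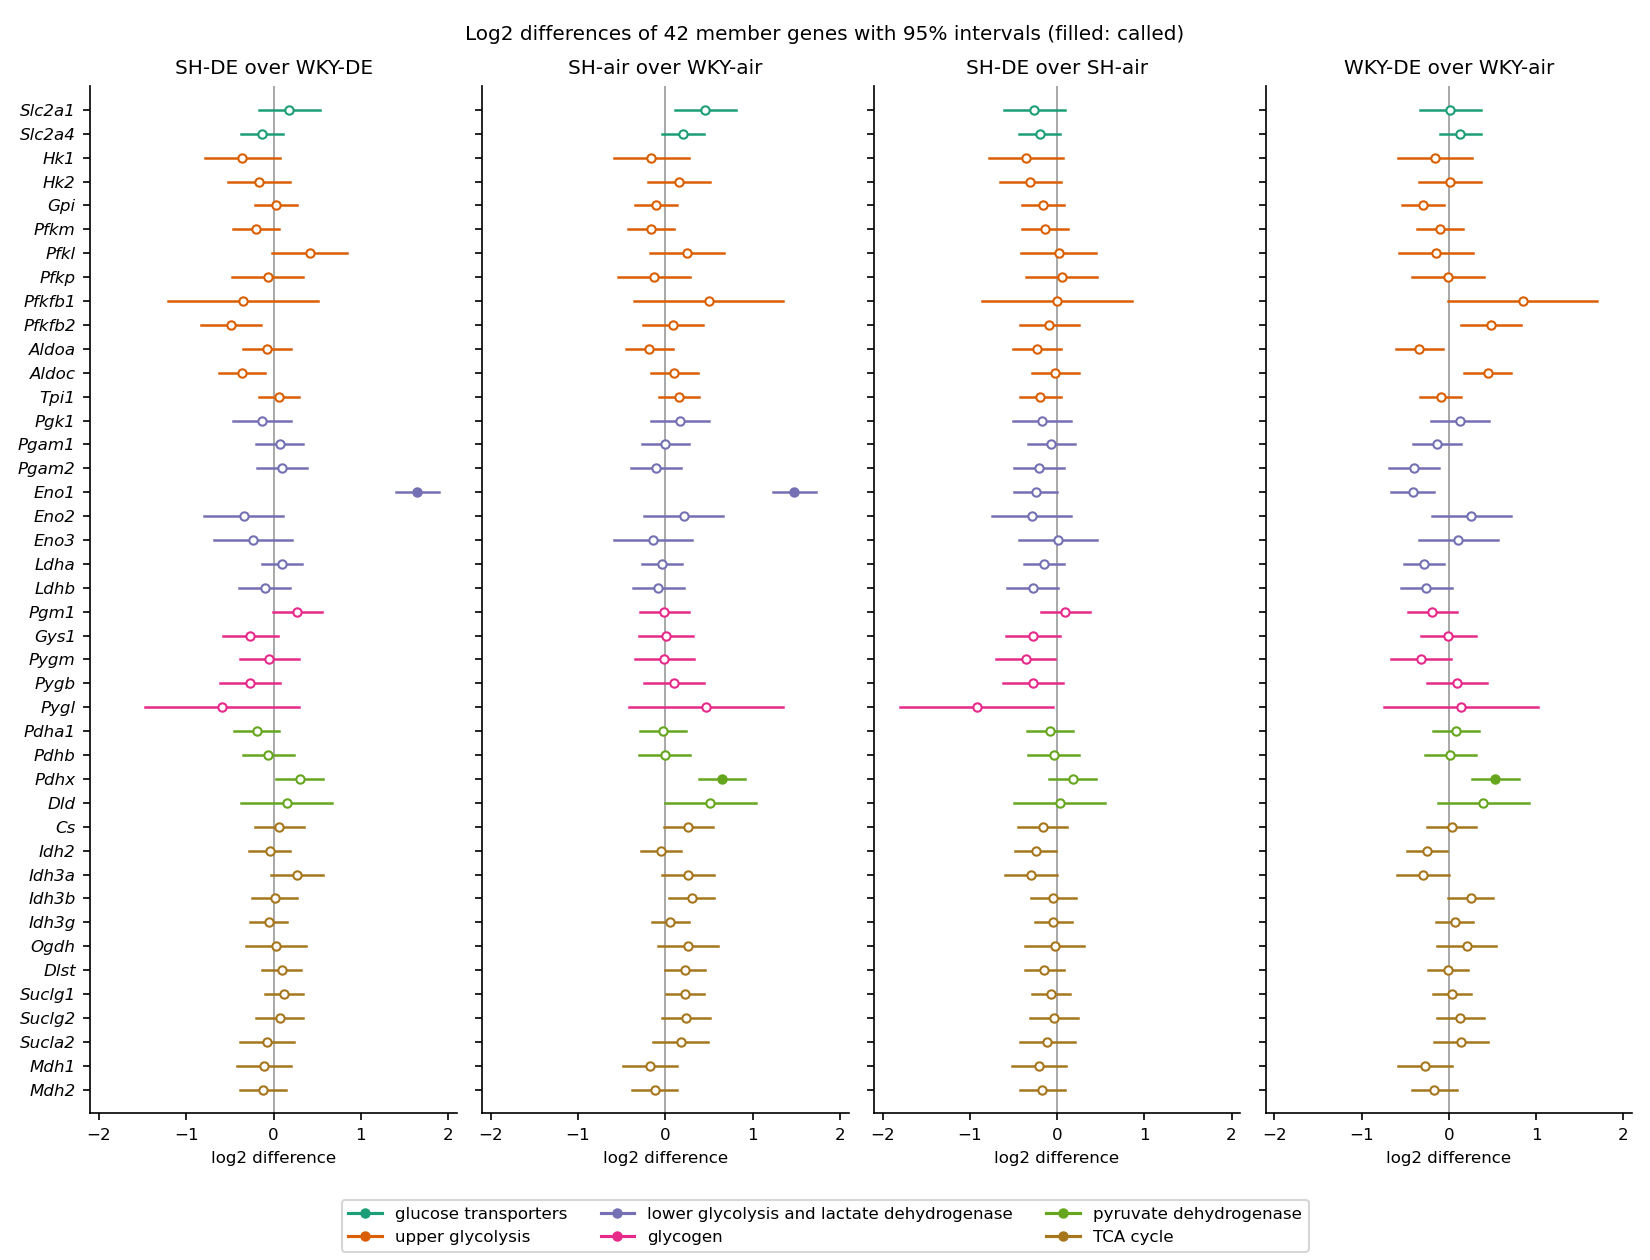
Log2 differences of the 42 member genes (rows) in 4 comparisons (panels), each by the probe set with the highest mean signal. Circles are limma estimates, lines 95% intervals, colours the role in the pathway and filled circles the calls. Eno1 stands at 1.65 and 1.48 in the 2 strain panels, while most other genes lie within 0.5 of zero. The called probe set of Pgm1 is not its brightest and is not drawn.

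Glucose enters cardiomyocytes through Slc2a4 (GLUT4), which insulin and contraction bring to the surface, and Slc2a1 (GLUT1), the basal transporter that is prominent in the fetal heart. Slc2a1 was at 572, 514, 479.7 and 523 in SH-air, against 411, 259, 428 and 432 in WKY-air. These groups did not overlap, but the difference of 0.46 (SE 0.16) had a limma adjusted p of 0.158. In SH-DE it was at 437 ± 70.8 (SD, n = 4), between SH-air at 522 ± 38.1 and WKY-DE at 381 ± 40.2, and WKY-air was at 383 ± 83.0. The brighter probe set of Slc2a4 was at 3756 ± 326 in SH-DE, 4319 ± 368 in SH-air, 4111 ± 360.4 in WKY-DE and 3744 ± 280.1 in WKY-air, and passed in no comparison. The other probe set of Slc2a4 had the opposite sign in 3 of the 4 comparisons.

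In upper glycolysis, hexokinases trap glucose, Gpi makes fructose 6-phosphate, phosphofructokinases commit it and aldolases split it. None of these 11 genes was called in any comparison. By the brightest probe set of each, log2 differences were −0.18 to 0.50 for strain in air and −0.48 to 0.42 under DE. For DE they were −0.34 to 0.85 in WKY rats and −0.36 to 0.05 in SH rats. Some dimmer probe sets lay outside these ranges. Hk1, Pfkl, Pfkp and Tpi1 lie within these ranges. Pfkfb2 encodes the cardiac 6-phosphofructo-2-kinase, whose product activates phosphofructokinase. One of its 4 probe sets was at 249.7, 234, 189 and 203 in WKY-DE, against 152, 161, 174 and 122 in WKY-air. The lowest WKY-DE array stood above the highest WKY-air array, with a log2 difference of 0.48 (SE 0.16, limma adjusted p = 0.118). On SH-DE arrays this probe set was at 213, 114, 151 and 139 and on SH-air arrays at 160.0, 164, 154 and 167, so both SH groups overlapped. Of its other 3 probe sets, all dimmer, none had an unadjusted p under 0.05 in any comparison.

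Aldoc, the brain aldolase, was dim, near the offset, at 31.9, 36.3, 31.3 and 49.1 in WKY-DE, against 19.2, 24.4, 20.7 and 26.7 in WKY-air. All WKY-DE arrays lay above all others of both strains, as the highest was 30.3 in SH-DE and 28.2 in SH-air. The DE difference in WKY rats was 0.45 (SE 0.13, limma adjusted p = 0.0739), and 0.25 after quantile normalization (limma adjusted p = 0.389). Aldoa, the muscle aldolase and among the brightest signals on the array, was at 27359 ± 4028 in WKY-DE and 34481 ± 4535 in WKY-air, with a limma adjusted p of 0.159. Between SH-DE (23566 to 27571) and SH-air (28567 to 32067) the Aldoa groups did not overlap, with a limma adjusted p of 0.843.

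Gpi was at 4699, 4252, 4753 and 4960.2 in WKY-DE, against 5258, 5717, 5362 and 6708 in WKY-air, with no overlap and a limma adjusted p of 0.158. Hk2, the insulin-responsive hexokinase, was at 166, 215, 238 and 231 in SH-DE, against 241, 246, 282 and 290.1 in SH-air, also without overlap (limma adjusted p = 0.843). Hk1, the hexokinase of most tissues, was measured on 1 tested and 3 control probe sets. Pfkm, the muscle phosphofructokinase, had 2 probe sets with DE differences in SH rats of −0.39 (SE 0.16) and −0.14 (SE 0.12), neither called. The liver form of the bifunctional enzyme, Pfkfb1, had a single WKY-air array at 23.4, while the other 3 were at 122 to 188, and its difference of 0.85 in WKY-DE had a standard error of 0.40.

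Lower glycolysis runs from Pgk1 to pyruvate and, with lactate dehydrogenase, to lactate. Eno1 had 1 tested probe set, and a strain difference in the sequence under it was not examined. It was at 10732, 10084, 7333 and 9230.4 in SH-DE, against 2826, 3142, 2846 and 2970.2 in WKY-DE. In air it was at 11398, 10499, 11181 and 10865 in SH-air, against 3943, 3957, 3951 and 3848 in WKY-air. The lowest of 8 SH arrays was 7333 and the highest of 8 WKY arrays 3957, so the strains did not overlap in either exposure. The signal was 3.13-fold higher in SH-DE than in WKY-DE (log2 difference 1.65, SE 0.11, limma adjusted p = 3.93e-06). In air, SH-air exceeded WKY-air 2.79-fold (log2 difference 1.48, SE 0.11, limma adjusted p = 6.74e-06). The strain difference under DE less that in air was 0.17 (SE 0.16, limma adjusted p = 0.712).

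The atrial signal differed between the groups that Eno1 separates, and the values stand side by side. Myl7 was at 94.2, 1443, 7876 and 187 on the SH-DE arrays, whose Eno1 was 10732, 10084, 7333 and 9230.4 in the same order. On the WKY-DE arrays Myl7 was at 657, 404, 9630 and 2927 and Eno1 at 2826, 3142, 2846 and 2970.2. SH-DE replicate 3 thus had the highest Myl7 and the lowest Eno1 of the SH arrays. With the mean log2 level of Myl7 and Myl4 of each array as a covariate, the Eno1 difference was 1.59 under DE (limma adjusted p = 7.39e-06) and 1.18 in air, where the limma adjusted p of 0.0529 no longer passed. In air the Myl7 signals of the strains did not overlap, so there this covariate and strain cannot be told apart. With both DE arrays of highest Myl7 left out it was 1.74 under DE and 1.48 in air. Among 12 measured genes within 8 genes of Eno1 on either side, on 13 probe sets, the strain differences in air ran from −0.93 to 0.46, and the lowest adjusted p was 0.217 in air and 0.163 under DE.

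**Figure D2:**
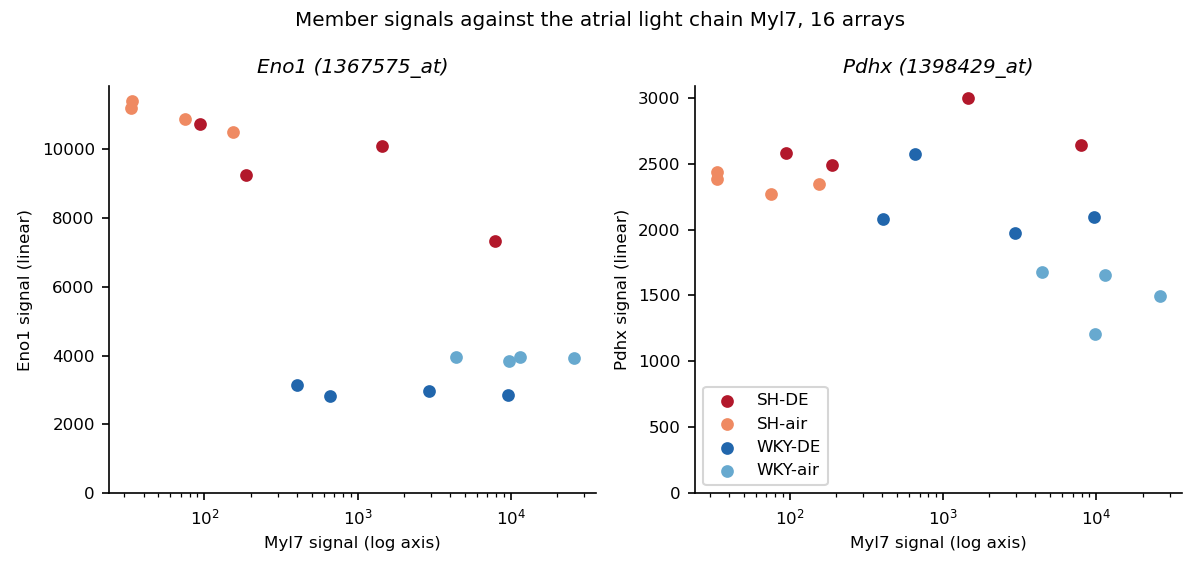
Signals of Eno1 and Pdhx (vertical axes, linear) against that of the atrial light chain Myl7 (horizontal axes, log scale), 1 point an array, 4 arrays in each of SH-DE, SH-air, WKY-DE and WKY-air. The SH points of Eno1 all lie at 7333 or higher and the WKY points at 3957 or lower. The Myl7 signals of SH-air and WKY-air do not overlap.

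For DE, Eno1 averaged 2946 ± 145 in WKY-DE and 3925 ± 51.7 in WKY-air (SD, n = 4 each), without overlap. The log2 difference was −0.41 (SE 0.11) with a limma adjusted p of 0.0722, just outside the threshold. Eno1 was called lower in WKY-DE under 5 alternatives, the offset at the 25th percentile, the same-median scaling, the dim filter, trend and robust moderation and array weights, and without SH-DE replicate 3. It was not called under the other 7 alternatives, nor in the other 15 fits without 1 array. In SH rats the difference was −0.25 (SE 0.11, limma adjusted p = 0.802). Eno2 was at 99.7 ± 8.33 in SH-DE, 129 ± 35.7 in SH-air, 136 ± 49.5 in WKY-DE and 107 ± 11.1 in WKY-air. Eno3 was at 3764 ± 613 in SH-DE, 3866 ± 1299 in SH-air, 4404 ± 331 in WKY-DE and 4106 ± 599.8 in WKY-air. The 8 genes of lower glycolysis, Eno1 included, had strain differences in air down to −0.14 and DE differences from −0.41 to 0.26 in WKY rats and −0.29 to 0.01 in SH rats. Neither of the other enolases passed in any comparison, and for Eno3 the strain difference in air lay between −0.59 and 0.31 (95% interval).

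Pgam2, the muscle phosphoglycerate mutase, was at 8794, 9106, 10135 and 11254 in WKY-DE, against 14530.5, 13410.5, 11898 and 11940.3 in WKY-air. These arrays did not overlap, and the difference of −0.40 (SE 0.13) had a limma adjusted p of 0.119. In SH rats Pgam2 was at 10276, 10238, 12142 and 9224 in SH-DE, against 11279.6, 10523, 14589 and 11939 in SH-air, with overlap. Ldha, the muscle lactate dehydrogenase subunit, was at 14995 ± 1405 in SH-DE, 16610.5 ± 972 in SH-air, 14011 ± 1362 in WKY-DE and 17002 ± 995 in WKY-air, and its difference of −0.28 in WKY-DE had a limma adjusted p of 0.160. Ldhb, the heart subunit, did not overlap between SH-DE (25374 to 29005) and SH-air (31513 to 35651), with a limma adjusted p of 0.807. Gapdh on its 3′ control probe set, outside the test, was at 24406 ± 1833 in SH-DE, 28598 ± 897 in SH-air, 26079 ± 3616 in WKY-DE and 31794 ± 4179 in WKY-air.

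Glycogen is built by Gys1, the muscle synthase, and broken down by the phosphorylases Pygm (muscle), Pygb (brain) and Pygl (liver), and Pgm1 links it to glycolysis by turning glucose 1-phosphate into glucose 6-phosphate. Pgm1 was measured by 2 probe sets, of which 1 was called for DE. On the dimmer, the only called member of this group, it was at 731, 602, 746 and 728 in WKY-DE, against 1268, 1103, 1235 and 1024 in WKY-air. The highest WKY-DE array was below the lowest WKY-air array (log2 difference −0.71, SE 0.13, limma adjusted p = 0.0215). On the brighter it was at 2487, 3124, 2095 and 2732 in WKY-DE and 2680.3, 3006, 3165 and 2939 in WKY-air, which overlapped (−0.19, SE 0.13, limma adjusted p = 0.443). The call on the dimmer was lost without WKY-air replicate 1 (limma adjusted p = 0.0512) or without WKY-DE replicate 2 (limma adjusted p = 0.0590). With the atrial covariate the difference was −0.64 (limma adjusted p = 0.0976).

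In SH rats the dimmer Pgm1 probe set was at 890.5, 1137, 823 and 824 in SH-DE, against 1135, 1064, 1189 and 1114 in SH-air, with 1 SH-DE array inside the SH-air range. Its lowest SH-DE array, 823, was above its highest WKY-DE array, 746, and SH-DE exceeded WKY-DE by 0.37 (SE 0.13, limma adjusted p = 0.210). The interaction was 0.41 (SE 0.18, limma adjusted p = 0.368), so a difference in DE response between the strains was not shown for Pgm1.

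All 3 probe sets of Pygm were lower by the mean in SH-DE than in SH-air, by log2 differences of −0.45, −0.36 and −0.33, with unadjusted p of 0.0107, 0.0385 and 0.0350 and limma adjusted p of 0.740, 0.796 and 0.796. The probe set with the lowest p was at 1815, 1742, 2042 and 2379.7 in SH-DE, against 2546, 2440.4, 3014 and 2885 in SH-air, without overlap. In WKY-DE the same 3 probe sets had differences of −0.11, −0.32 and −0.34, none called. Pygl, dim on this array, was at 76.2, 15.8, 106 and 39.7 in SH-DE and 147, 154, 59.1 and 108 in SH-air. Its difference of −0.92 had a standard error of 0.41 and a limma adjusted p of 0.797. Gys1 was at 1095 ± 203 in SH-DE, 1318 ± 122 in SH-air, 1307 ± 133 in WKY-DE and 1315 ± 166 in WKY-air, with overlap in each comparison.

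The pyruvate dehydrogenase complex is built on a core of acetyltransferase (Dlat) and Pdhx, the component X that binds the dihydrolipoamide dehydrogenase Dld. Pdha1 and Pdhb form the pyruvate dehydrogenase enzyme itself, which docks on that core. On its 1 tested probe set, Pdhx was at 2582, 2998, 2642 and 2488 in SH-DE and at 2383, 2346, 2436 and 2268 in SH-air. In WKY rats it was at 2575, 2076, 2093 and 1976 in WKY-DE, against 1496, 1677, 1654 and 1206 in WKY-air. WKY-air was thus the low group, below all 12 other arrays. The difference was 0.65 (SE 0.13, limma adjusted p = 0.0136) for SH-air over WKY-air, a 1.57-fold higher signal. For WKY-DE over WKY-air it was 0.53 (SE 0.13, limma adjusted p = 0.0469), or 1.45-fold.

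The Pdhx call for DE stood just inside the threshold. It was kept without WKY-air replicate 3 (limma adjusted p = 0.0488) and lost without any other single array, at limma adjusted p of 0.0508 to 0.112. It was kept with the offset at the 25th percentile, the dim filter, trend and robust moderation and array weights. The other 8 alternatives lost it, among them the atrial covariate, an offset of 1 and only the groups compared. Leaving out both DE arrays of highest Myl7 also ended it. After quantile normalization its limma adjusted p was 0.0504, and with each array scaled to the same median the difference was 0.36 (limma adjusted p = 0.160). Blocking on replicate number gave a limma adjusted p of 0.0693. The strain call in air was kept without each single array. With the atrial covariate, which cannot be told apart from strain in air, the strain difference was 0.62 (limma adjusted p = 0.75). With a fit of SH-air and WKY-air alone the limma adjusted p was 0.0720. In SH-DE Pdhx lay above all SH-air arrays, by 0.18 (SE 0.13, limma adjusted p = 0.883), and SH-DE exceeded WKY-DE by 0.30 (limma adjusted p = 0.329). Around Pdhx, 11 measured genes within 8 genes on either side had a lowest adjusted p of 0.142 in air.

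Pdha1 was at 12449.5 ± 1926 in SH-DE, 13120.0 ± 1253 in SH-air, 14145 ± 1079.7 in WKY-DE and 13307 ± 616 in WKY-air on its brighter probe set. Pdhb was at 5569 ± 1057 in SH-DE, 5653 ± 466 in SH-air, 5753 ± 645 in WKY-DE and 5670.3 ± 278 in WKY-air. Neither passed in any comparison, with 95% intervals of the strain difference in air from −0.29 to 0.24 for Pdha1 and from −0.30 to 0.28 for Pdhb. Dld was at 5234, 5533, 4597 and 5926 in SH-air, against 2960.5, 4742, 3777 and 3526 in WKY-air, overlapping on 1 array of each group (0.52, SE 0.24, limma adjusted p = 0.288). In WKY-DE it was at 5950.3, 6297, 5192 and 2896, the last below all WKY-air arrays.

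**Figure D3:**
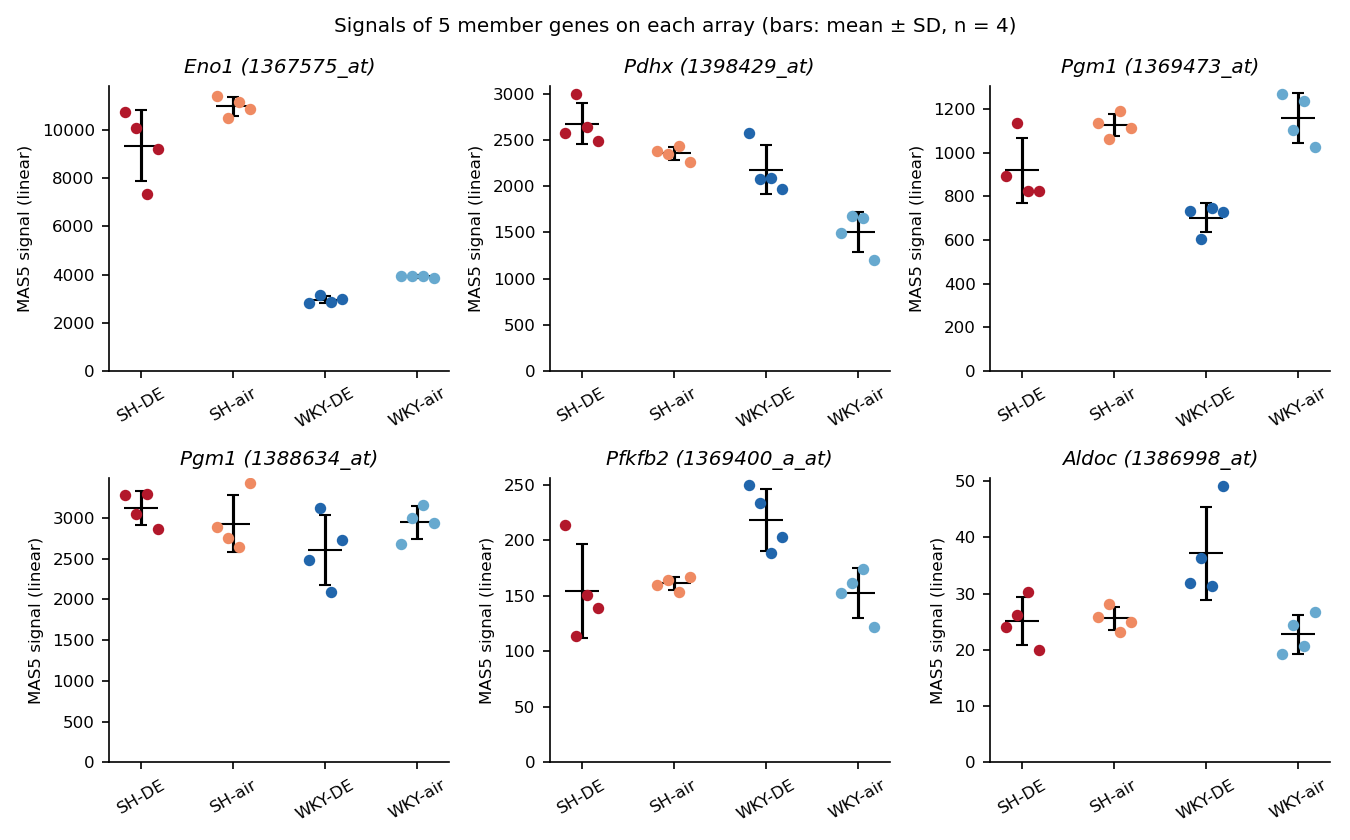
MAS5 signals (linear axes from 0) of Eno1, Pdhx, both probe sets of Pgm1, 1 of Pfkfb2 and Aldoc on each array (points) of SH-DE, SH-air, WKY-DE and WKY-air, with mean ± SD (bars, n = 4). Eno1 separates the strains at 7333 and 3957, Pdhx is lowest in WKY-air, and the dimmer Pgm1 probe set is lowest in WKY-DE.

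The TCA cycle oxidizes acetyl-CoA through citrate synthase (Cs), the isocitrate dehydrogenases, the oxoglutarate dehydrogenase complex (Ogdh, Dlst), succinyl-CoA ligase (Suclg1, Suclg2, Sucla2) and malate dehydrogenase (Mdh2). None of the 12 genes, Mdh1 included, was called in any comparison. By the brightest probe set of each, 9 of 12 had a positive log2 difference in air, higher in SH-air, with a median of 0.23. The range was −0.18 to 0.31, while the median over all probe sets was 0.02 and 53.1% of them were above 0. The 4 with no overlap on the drawn probe set were Idh3a, Idh3b, Suclg1 and Suclg2. Idh3b, a subunit of the NAD-dependent isocitrate dehydrogenase, was at 13631, 12577, 13729.6 and 11517 in SH-air, against 10938, 11481, 9246 and 10006 in WKY-air. The difference was 0.31 (SE 0.12, limma adjusted p = 0.202), and the other 3 had adjusted p of 0.272 to 0.357.

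Suclg1, the alpha subunit of succinyl-CoA ligase, was at 7832, 7135, 8205 and 7736 in SH-air, against 6883, 6446, 7067 and 6033 in WKY-air. On 1 of its 3 probe sets Cs was at 5747, 4861, 4916 and 4718 in SH-air, against 3669.7, 4614, 3498 and 3631 in WKY-air (0.40, SE 0.14, limma adjusted p = 0.144). Cs differed by 0.30 and 0.26, with overlap, on the other 2. Over all members 8 of 56 probe sets were higher in SH-air without overlap and 0 lower, beside 5.86% higher and 5.85% lower of all probe sets. Of these 8, 5 were of the TCA cycle. Under DE the median over the 12 genes was 0.02, beside −0.08 for all probe sets with 1 gene. Without overlap, 2 member probe sets were higher in SH-DE (Eno1, Pgm1) and 2 lower (Pfkfb1, Aldoc), beside 3.3% and 5.51% of all probe sets.

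For DE in WKY rats the 12 genes had a median of 0.04, 7 above and 5 below 0, by the brightest probe set of each. Over all probe sets with 1 gene the median was 0.08, and 60.6% were above 0. Idh2, the mitochondrial NADP-dependent enzyme, was at 28269.6, 30016, 34455 and 30877 in WKY-DE and at 41125, 34853, 37809 and 33209 in WKY-air, with 1 array of each inside the other's range (−0.25, SE 0.11, limma adjusted p = 0.213). Idh3a was at 2713 ± 524 in WKY-DE and 3299.8 ± 125 in WKY-air (limma adjusted p = 0.240). Over all members 3 of 56 probe sets were higher in WKY-DE without overlap (Pfkfb2, Aldoc, Pdhx), beside 8.14% of all, and 5 were lower (Gpi, Pgam2, Eno1, Pgm1, Pygm), beside 4.58%.

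In SH rats all 12 TCA genes had negative DE differences on their brightest probe set, from −0.30 to −0.03 with a median of −0.13, and none was called. Among the dimmer probe sets, that of Mdh1 was at 1.01-fold in SH-DE over SH-air, and 1 of Cs at 0.72-fold. Idh2 was at 28097, 31773, 32142 and 27658 in SH-DE, against 37083, 32813, 35044 and 36614 in SH-air, without overlap (−0.24, SE 0.11, limma adjusted p = 0.796). Mdh2 was at 15509, 16964, 15140.4 and 16297 in SH-DE, against 17176, 17484, 19306 and 17782 in SH-air, also without overlap (−0.17, SE 0.12, limma adjusted p = 0.886). By the mean of the brightest probe set, 36 of 42 member genes were lower in SH-DE, with a median of −0.16, while 50.2% of all probe sets were lower. Without overlap 6 of 56 probe sets were lower (Hk2, Aldoa, Ldhb, Pygm, Idh2, Mdh2), beside 2.06% of all, and 1 higher (Pdhx), beside 2.11%.

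The size of the DE differences moved with signal over the whole array. Among all 147 probe sets with a mean signal of 10000 or more, 83.7% were lower in SH-DE than in SH-air, with a median of −0.14, and the 14 members in that range were all lower, with a median of −0.17. Between 5000 and 10000, 63.3% of 199 probe sets were lower in SH-DE, with a median of −0.05, and 11 of 11 members, with a median of −0.14. Between 1000 and 5000 it was 50.3% of 1641 probe sets, with a median of −0.00, and 12 of 17 members, with a median of −0.20. Below 1000 it was 49.5% of 10796 probe sets, with a median of 0.00, and 11 of 14 members, with a median of −0.19. The member medians in SH rats thus stayed between −0.20 and −0.14 in each range. In WKY rats 90.5% of the brightest 147 were lower in WKY-DE, with a median of −0.25, and 8 of 14 members, with a median of −0.13. After quantile normalization the member median was −0.07 in SH rats and 0.10 in WKY rats, beside −0.00 and 0.01 for all probe sets. Without it, the medians were −0.16 and 0.01, beside −0.00 and 0.10 for all probe sets tested.

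**Figure D4:**
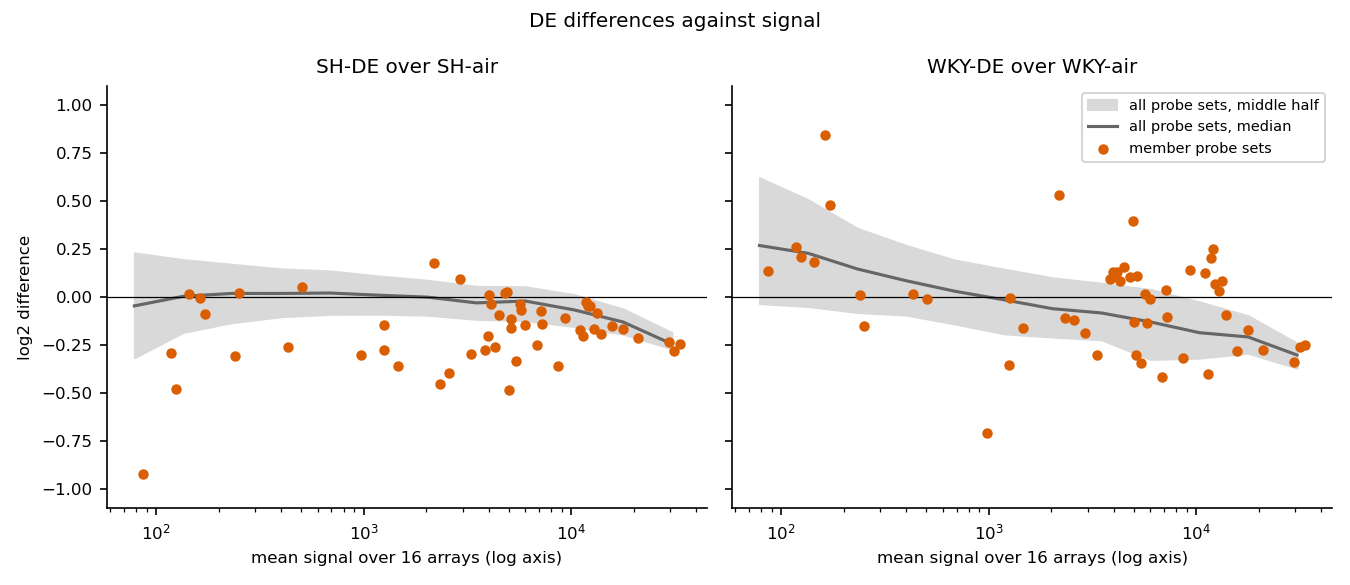
Log2 differences for DE (vertical axis) against mean signal over 16 arrays (horizontal axis, log scale) in SH rats (left) and WKY rats (right). Orange points are the 53 member probe sets with a mean signal of 60 or more, the line is the median of all probe sets with 1 gene and the band their interquartile range. The line falls below 0 at high signal in both panels, to a median of −0.14 in SH-DE and −0.25 in WKY-DE at signals of 10000 or more.

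Genes that feed or control the pathway were taken from lists of 118 genes, of which 96 were measured on 124 probe sets. In air 8 of these probe sets (6.45%), on 7 genes, differed by strain, beside 3.14% of all probe sets. The signal was higher in SH-air for 7 and lower for 1, that of Pgd. At the pyruvate dehydrogenase switch, Pdp1, the phosphatase that activates the complex, and Pdk1, a kinase that inhibits it, were both among the 7. Pdp1 was at 1958, 2016, 2207 and 2006 in SH-air, against 1133, 1152, 1260.0 and 1125 in WKY-air (0.80, SE 0.11, limma adjusted p = 0.00129). These groups did not overlap. Under DE it was at 1836 ± 202 in SH-DE and 1357 ± 141 in WKY-DE (0.43, limma adjusted p = 0.0973). Pdk1 was at 2859, 3194, 2753 and 2905 in SH-air, against 2463, 1930.2, 2005 and 1879 in WKY-air on 1 probe set (0.50, SE 0.11, limma adjusted p = 0.0215). The second Pdk1 probe set differed by −0.06. Pdk4, the kinase induced by fasting and fatty acids, was at 1626, 1662, 2416 and 1680.3 in SH-air, against 737, 1086, 1023 and 1108 in WKY-air, without overlap and with a limma adjusted p of 0.0794.

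Glud1, glutamate dehydrogenase, which feeds the cycle with oxoglutarate, was called higher in SH-air on both of its probe sets (0.71 and 0.49, limma adjusted p = 0.00527 and 0.0215). On the first it was at 1846, 2069.9, 1581 and 1875 in SH-DE, against 1306, 1310.0, 1145 and 1249 in WKY-DE (0.55, SE 0.12, limma adjusted p = 0.0467), so it separated the strains in both exposures. Leaving out any array but SH-air replicate 2, SH-DE replicate 3 or WKY-air replicate 1 ended that call. Malic enzyme 1 (Me1) was higher by 0.68 in SH-air on 1 of its 2 probe sets (limma adjusted p = 0.0260). Phka1, a regulatory subunit of phosphorylase kinase in muscle, was higher by 0.72 on 1 of 2 probe sets (limma adjusted p = 0.0229), and Slc25a13, an aspartate/glutamate carrier, by 0.73 (limma adjusted p = 0.0436). The Slc25a13 call was lost in 10 of 16 fits without 1 array (SH-air replicates 2, 3 and 4, SH-DE 1 and 2, WKY-air 1, 3 and 4, WKY-DE 1 and 4), with an offset of 1, the same-median scaling and the replicate block. Me1, Pdk1 and Phka1 were each lost in 5 of 16. These arrays were SH-air replicates 1, 2 and 4 and WKY-air 1 and 4 for Me1, SH-air 2 and 4 and WKY-air 2, 3 and 4 for Pdk1, and SH-air 1 and 2 and WKY-air 1, 2 and 3 for Phka1. The replicate block also ended the call of Me1. A fit of only the groups compared ended those of Slc25a13, Me1 and Pdk1. Glud1, Pdp1 and Pgd were called in all 16. Pgd, which yields NADPH in the pentose phosphate pathway, was the only one lower, at 349.7, 352, 409 and 380.2 in SH-air, against 652, 776, 767 and 788 in WKY-air (−0.97, SE 0.11, limma adjusted p = 1.90e-04).

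For DE in WKY rats 0 of the 124 probe sets were called higher and 2 (1.61%) lower, beside 1.87% of all probe sets. Txnip, which restrains glucose uptake and rises with glucose, was at 5214, 6637, 4630.2 and 5175 in WKY-DE, against 7343, 10048, 9355 and 10230.5 in WKY-air (−0.77, SE 0.16, limma adjusted p = 0.0333). Bsg (basigin), the chaperone of the lactate transporters, was at 5099, 6000.0, 4825 and 6270.4 in WKY-DE, against 9828, 8009, 7930.4 and 8087 in WKY-air (−0.61, SE 0.14, limma adjusted p = 0.0462). Neither gene overlapped between these groups. The Bsg call was kept without SH-air replicate 2 or 3 and lost without any other single array. That of Txnip was lost without WKY-air replicate 2 or 4 or WKY-DE replicate 1, 3 or 4. After quantile normalization, with the replicate block or with only the groups compared, 0 of the 124 were called. In SH rats 0 were called for DE, as were 0 for the interaction. With the atrial covariate 0 of the 124 were called in air, under DE or for DE in WKY rats. Aco1, the cytosolic aconitase, was at 616 ± 89.2 in SH-DE, 726 ± 24.8 in SH-air, 677 ± 138 in WKY-DE and 599 ± 90.6 in WKY-air, and passed in no comparison.

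**Figure D5:**
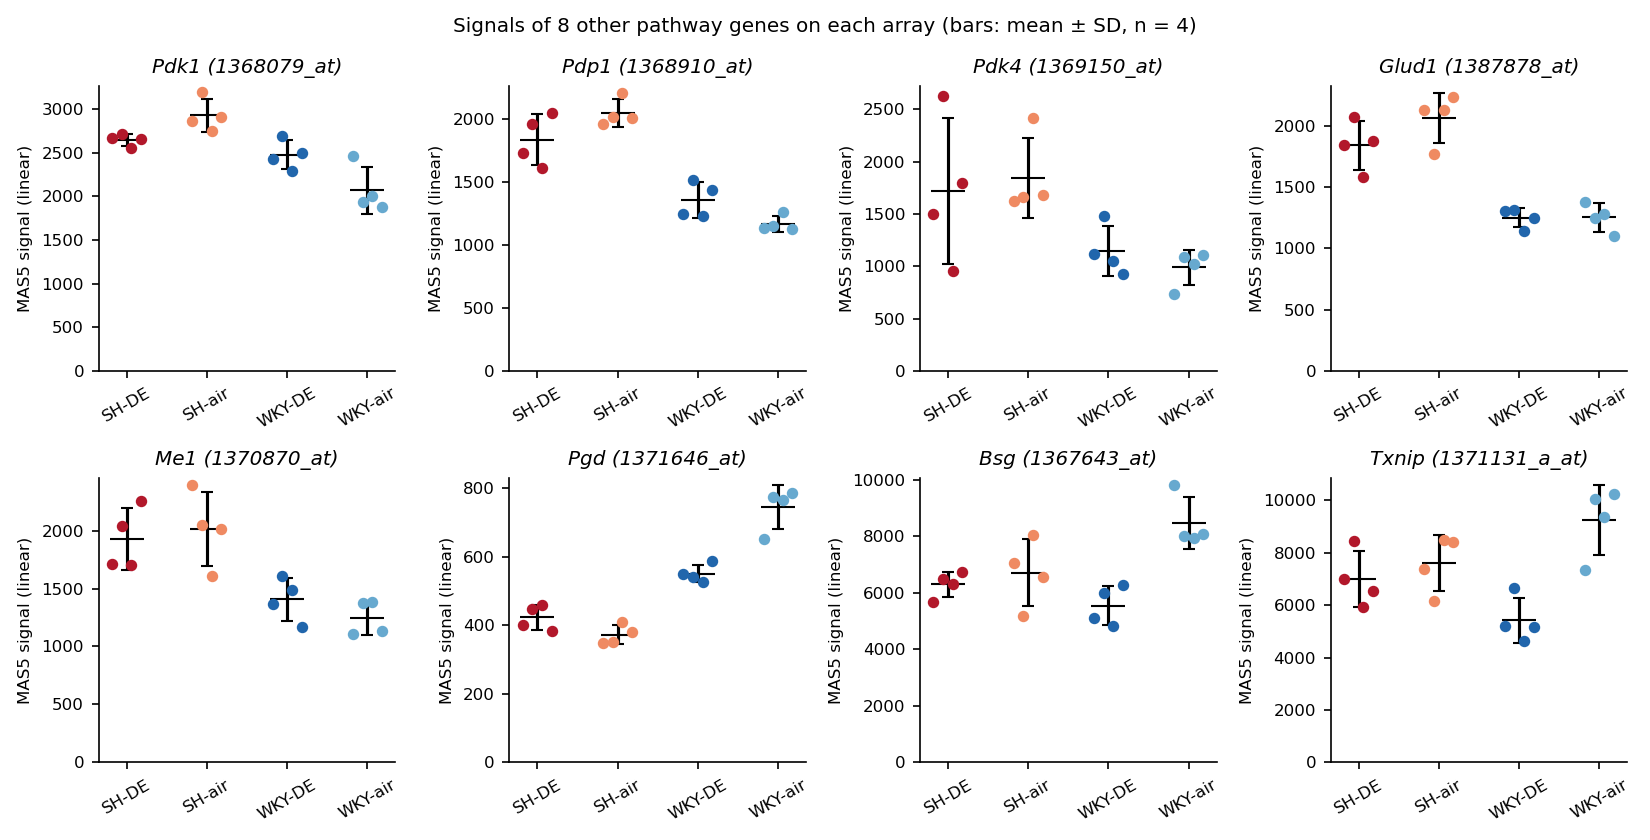
MAS5 signals (linear axes from 0) of 8 genes that feed or control the pathway, on each array (points) of SH-DE, SH-air, WKY-DE and WKY-air, with mean ± SD (bars, n = 4). Between SH-air and WKY-air, Pdp1, Pdk1, Glud1 and Me1 were higher and Pgd was lower in SH-air (calls). Bsg and Txnip were called for DE in WKY rats, with lower signals in WKY-DE. Pdk4 was not called.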

How the data were processed

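The authors hybridized left ventricle RNA of 16 rats to Affymetrix Rat 230A arrays and deposited an intensity for each of 15923 probe sets, the signal of Affymetrix's Microarray Suite (MAS5) at its defaults. A trimmed mean without 2% at each end was 500.15 to 500.19 on each array, and 7.82 to 12.5% of probe sets lay below the offset. After 57 control probe sets were left out, log2(signal + 16.1), the 10th percentile as the offset, was fitted for 15866 probe sets in limma 3.58.1 (R 4.3.3) with 4 group means and 12 residual degrees of freedom, and p-values were adjusted over all of them. Counts use the 12783 probe sets with 1 gene in the platform annotation, leaving out 312 with several and 2771 with none. A gene stands for its brightest probe set in medians. Means, ranges and figures were made in Python 3.11.15 with pandas 2.3.3 and matplotlib 3.10.9. The fit was tested on simulated data. The number of arrays limits the precision.

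Members and lists were chosen with earlier results of these data known. Array values are given for member probe sets called, or at an unadjusted p under 0.01, in any comparison, and for examples of lowest p in each role. Of other pathway genes, those called and Aco1 and Pdk4 are named. Alternatives were offsets, scalings, a filter on dim probe sets, moderation, array weights, only the groups compared, a replicate block, an atrial covariate, a stricter threshold and leaving out arrays. Probe sequences were not used here, so strain differences in the sequence under a probe set were not examined.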

Additional observations from a re-analysis of the deposited data

Results flagged for a closer look

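In 92 groups of 4 arrays checked, 5 had 1 array far from the other 3, and chance alone flags about 1 group in 20. These were Pgm1 at 602 on a WKY-DE array, Slc2a4 at 4651 on a WKY-DE array and Suclg1 at 7579 on a WKY-DE array. In WKY-air they were Eno1 at 3848 and Slc2a1 at 259. For Eno1 the other 3 WKY-air arrays lay at 3943 to 3957, so the gap is small beside the strain difference. Without the WKY-DE array at 602 the DE call of Pgm1 in WKY rats was lost (limma adjusted p = 0.0590).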

How the results depend on the processing

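For strain in air, 2 member probe sets were called, and 1 with only the groups compared, 0 with the atrial covariate and 1 at an adjusted p under 0.01. For strain under DE 1 was called under each alternative run. For DE in WKY rats 2 were called, and 1 with an offset of 1, quantile normalization or the replicate block, 0 with only the groups compared, the atrial covariate or an adjusted p under 0.01, and 1 with both DE arrays of highest Myl7 left out, an alternative chosen after seeing the data. It was 3, with Eno1 added, with the 25th percentile offset, the dim filter, trend and robust moderation or array weights, and 2 with the same median, where Eno1 took the place of Pdhx. Leaving out 1 array gave 2 to 2, 1 to 1 and 0 to 2 calls in these comparisons, with 0 without WKY-air replicate 1 or WKY-DE replicate 2. For DE in SH rats and the interaction it gave 0 to 0. With arrays scaled to the same median, the member median was 0.092 for strain under DE (otherwise −0.06) and −0.15 for DE in WKY rats (otherwise 0.01). Leave-one-out medians were 0.07 to 0.11 and −0.10 to 0.00 for strain in air and under DE, and −0.01 to 0.04 and −0.18 to −0.13 for DE in WKY and SH rats.

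Of the other pathway genes, 8 probe sets were called for strain in air, 4 with only the groups compared, 5 with the replicate block, 0 with the atrial covariate, 3 at an adjusted p under 0.01, 11 with the dim filter, 10 with trend and robust moderation (Pdk4 added in both, Acly and Prkag2 in the first, Epas1 in the second) and 4 to 9 with 1 array left out. For strain under DE 1 was called, 2 with an offset at the 25th percentile, and 3 with the same median, the dim filter, trend and robust moderation or array weights. With quantile normalization it was 1, Minpp1 in place of Glud1. It was 0 with an offset of 1, only the groups compared, the replicate block, the atrial covariate, an adjusted p under 0.01 or both high-Myl7 arrays out, and 0 to 1 with 1 array left out. For DE in WKY rats 2 were called, 4 with the same median, the dim filter or array weights, 5 with trend and robust moderation, 3 with the 25th percentile offset and 1 with an offset of 1. It was 0 with quantile normalization, only the groups compared, the replicate block, the atrial covariate, an adjusted p under 0.01 or both high-Myl7 arrays out, and 0 to 2 with 1 array left out. The cause was not tested. Replicate numbers only name arrays: of 24 same-numbered pairs 0 had a correlation of deviations over 0.1 (−0.096 to 0.053), and 2 of 16 arrays correlated best with their own number.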

Other observations

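Control probe sets also hold hexokinase, outside the test. On the 3′ hexokinase probe set the signal was 199 ± 39.9 in SH-DE, 275 ± 39.8 in SH-air, 248 ± 39.1 in WKY-DE and 287 ± 17.9 in WKY-air (SD, n = 4). On the middle probe set it was 313 ± 112 in SH-DE, 410.0 ± 48.6 in SH-air, 349 ± 122 in WKY-DE and 424 ± 110.0 in WKY-air. The 3′ Gapdh signal over the 5′ one was 1.12 to 1.41 over the 16 arrays. For beta-actin this ratio was 1.30 to 1.77, highest on SH-DE replicate 3. The 3′ end of both transcripts thus read brighter than the 5′ end on each array.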
